A study of Caenorhabditis elegans with 8 samples.

Results

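Small RNAs counted at each gene were compared between zsp-1 mutant and wild-type Caenorhabditis elegans that ate control bacteria, without a double-stranded RNA directed at a worm gene. The comparison takes 4 of the 8 libraries of the series. Wild type was strain N2 (2 libraries) and the mutant was strain YY1683 (2 libraries), and both ate HT115 bacteria with the empty vector L4440 at 20 °C. The other 4 libraries, of the same strains on oma-1 RNAi food, were in the same fit. They helped to decide which genes were tested, to scale the libraries and to estimate the spread, and served the comparison between foods. Samples were whole animals, called gravid adults of day 1 in the age label and young adults in the extraction text. The genotype label of YY1683 writes zap-1 where the series title writes zsp-1, no label names the allele, and the count files list the gene as pid-2. All 20191 genes of the files were considered, and 4567 of them had enough reads to be tested. Whether the libraries of a genotype are separate cultures is not labelled. The p-values therefore describe the spread between these samples alone, and that spread may be technical.

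Germ granules lie beside the nuclei of C. elegans germ cells, and Z granules are a compartment of them. In and around these granules, RNA-dependent RNA polymerases copy messenger RNAs into small interfering RNAs (siRNAs), which are loaded onto Argonaute proteins that silence or protect the matching genes. ZSP-1, also known as PID-2, is a Z granule protein, and other Z granule proteins, among them ZNFX-1 and the Argonaute WAGO-4, are known for carrying RNA silencing from parents to offspring. Reads at a gene here stand for small RNAs counted at that gene, and not for its messenger RNA.

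The wild-type libraries held 177175 and 187547 reads and the mutant libraries 340932 and 136908, so that 1 read stood for 2.93 to 7.30 CPM (counts scaled to a fixed library size) before normalization between libraries. Pearson's r of log2 CPM across genes was 0.860 between the wild-type libraries and 0.918 between the mutant libraries, against 0.599 to 0.673 between genotypes; genes are not independent replicates. Replicates were further apart than counting error alone would give (chi-square per degree of freedom 4.06 in wild type and 1.84 in the mutant). All 15 germline markers were tested and 0 were called, with log2 fold changes from -0.69 to 0.36. Of the markers of other tissues, 0 of 13 for muscle, 1 of 14 for intestine, 1 of 6 for epidermis and 3 of 15 for neurons had enough reads. In these bulk samples fewer cells of a type and fewer small RNAs per cell cannot be told apart.

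At the mutated gene itself, pid-2 (chromosome I, 93024 to 94884 of build WBcel235), the wild-type libraries had 94 and 57 reads and the mutant libraries 14 and 2. Both mutant libraries were below both wild-type libraries, at 28.5 ± 17.2 against 401.9 ± 146.5 CPM (SD, n = 2 each). This is a log2 fold change of -3.58 (SE 0.43, adjusted p = 5.92e-07). With 1 library left out it ranged from -3.14 (without wild-type replicate 1) to -4.55 (without mutant replicate 1). Adjusted p-values are those of edgeR's quasi-likelihood test with Benjamini-Hochberg adjustment over all tested genes, unless another test is named. Exons of pid-2 overlap those of a gene on the opposite strand, so the reads are uncertain between both genes.

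Small RNA reads were higher in the mutant at 399 genes, 8.74% of the tested genes, and lower at 350 genes, 7.66%, at an adjusted p under 0.05. Together these 749 genes were 16.4% of the tested genes. The changes were large: 217 genes were at least 4-fold higher and 193 at least 4-fold lower, and 12 genes were at least 64-fold higher and 7 at least 64-fold lower by the fitted values. The median log2 fold change was 2.13 among the higher genes, -2.1 among the lower genes and -0.07 over all tested genes. The higher genes held 4.63 and 6.13% of all reads in the wild-type libraries and 23.8 and 26.5% in the mutant libraries. The lower genes held 13.11 and 10.44% in wild type and 2.54 and 2.84% in the mutant. The remaining 3818 genes kept most of the reads in each library, 73.8 and 77.0% in wild type and 68.3 and 65.8% in the mutant. The mutant libraries lay above both wild-type libraries at all 399 higher genes and below both at 337 of the 350 lower genes, against 22.9 and 26.1% of all tested genes without such overlap in either direction. The number of lower genes rested more on single libraries than the number of higher genes. It was 155 without mutant replicate 1, 225 without mutant replicate 2 and 149 with DESeq2, where the numbers of higher genes were 327, 322 and 302.

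**Figure D1:**
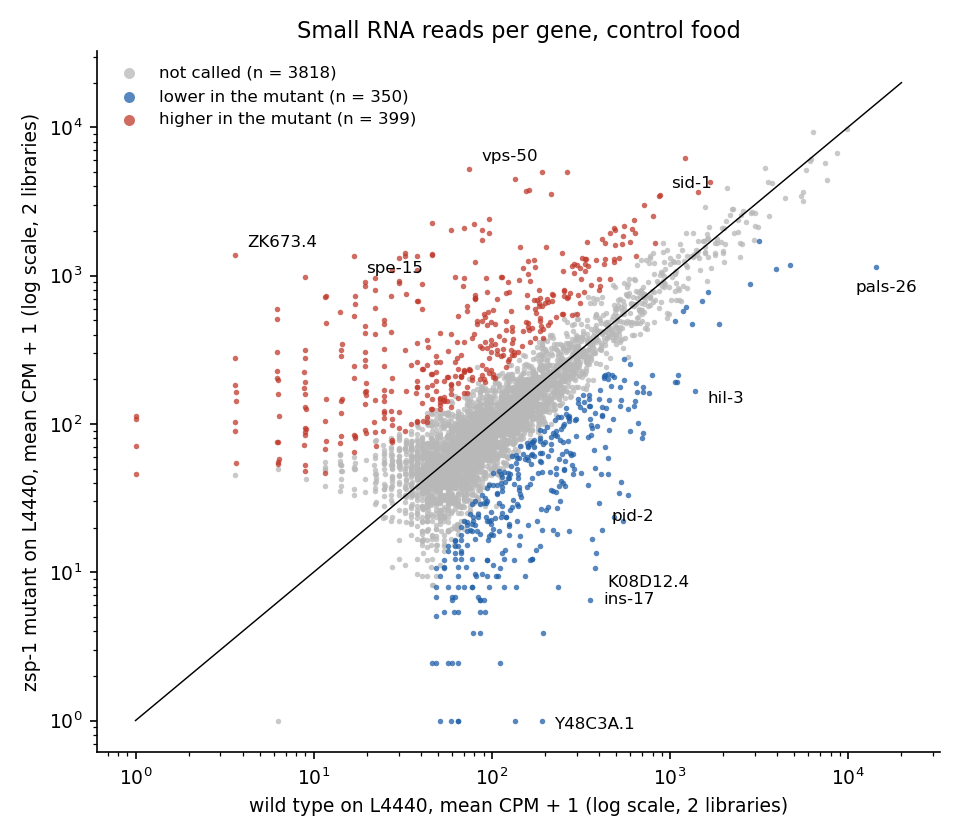
Mean CPM + 1 of each tested gene in wild type (x axis) and the mutant (y axis) on L4440, both on log scales, with 2 libraries a genotype; the line marks equal levels. Red points are the 399 genes higher in the mutant, blue points the 350 lower genes and grey points the 3818 genes not called, and names mark some of the genes with values in the text.

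A gene had to reach about 10 reads in at least 2 of the 8 libraries to be tested. A gene could therefore pass through 1 genotype alone, on either or both foods, and such genes were selected for a high count there. Of the higher genes 134 passed through the mutant libraries alone and 265 through both genotypes, and of the lower genes 192 passed through wild type alone and 158 through both. Of all tested genes 331 passed through the mutant alone, 697 through wild type alone and 3418 through both. In wild type the higher genes had a median of 68.5 CPM, the lower genes 164 and the genes not called 89.9, and in the mutant the medians were 366.8, 37.6 and 87.4 CPM. The median SE of the log2 fold change was 0.58 among the tested genes with the lowest mean CPM over both genotypes (up to 56.7 CPM) and 0.34 among those with the highest (173 CPM or more).

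The genes with the largest gains went from almost no reads in wild type to many in the mutant. ZK673.4 (chromosome II, 10452920 to 10455200) had 0 and 1 reads in the wild-type libraries and 450 and 174 in the mutant libraries, a 476-fold higher share of reads (95% counting interval 85.2 to 18842). The files and the annotation give this gene no other name. math-6, of the family of genes with a MATH domain, had 0 and 0 reads against 40 and 12, and npp-26, a nuclear pore gene, had 0 and 0 against 26 and 18. epg-2, which acts in the autophagic removal of germ granule proteins in embryos, had 0 and 0 reads against 20 and 10, and the laminin gene lam-2 had 0 and 0 against 14 and 6. At a floor of 3 reads over both wild-type libraries these genes were at least 13.2-fold, 11.2-fold, 7.63-fold and 5.09-fold higher in the mutant. The 4 genes were called (adjusted p at most 0.00393), and lam-2 lost its call without mutant replicate 1 (adjusted p = 0.0974). The first 3 are the tested genes with at least 10 reads in each mutant library and none in wild type.

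Further genes with large gains had up to 28 reads over both wild-type libraries. ida-1, which encodes a membrane protein of dense-core vesicles, had 0 and 2 reads in wild type and 169 and 65 in the mutant, an 89.3-fold higher share (24.4 to 742). vps-50, needed for the same vesicles to mature, had 5 and 23 reads against 1521 and 734. It gained the most reads of these 12 genes, from 73.6 ± 66.1 to 5213 ± 1128 CPM (SD, n = 2 each; log2 6.13, SE 0.48, adjusted p = 1.93e-09), and without wild-type replicate 1 or 2 its log2 fold change was 5.4 or 7.66. The nuclear hormone receptor gene nhr-47 had 2 and 1 reads against 316 and 127, a 113-fold higher share (38.3 to 549). ltd-1, a gene for a LIM domain protein, had 0 and 2 reads against 181 and 80, and the protein kinase gene kin-14 had 0 and 1 against 79 and 40. Their shares of reads were 99.6-fold (27.3 to 827) and 90.8-fold (16 to 3617) higher. The myosin VI gene spe-15, needed for sperm formation, had 1 and 5 reads against 327 and 214, and the xanthine dehydrogenase gene xdh-1 had 4 and 0 against 211 and 103. In each of these genes both mutant libraries exceeded both wild-type libraries by more than 10-fold in CPM. The intervals are wide because the wild-type libraries gave so few reads, and they cover counting error only.

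**Figure D2:**
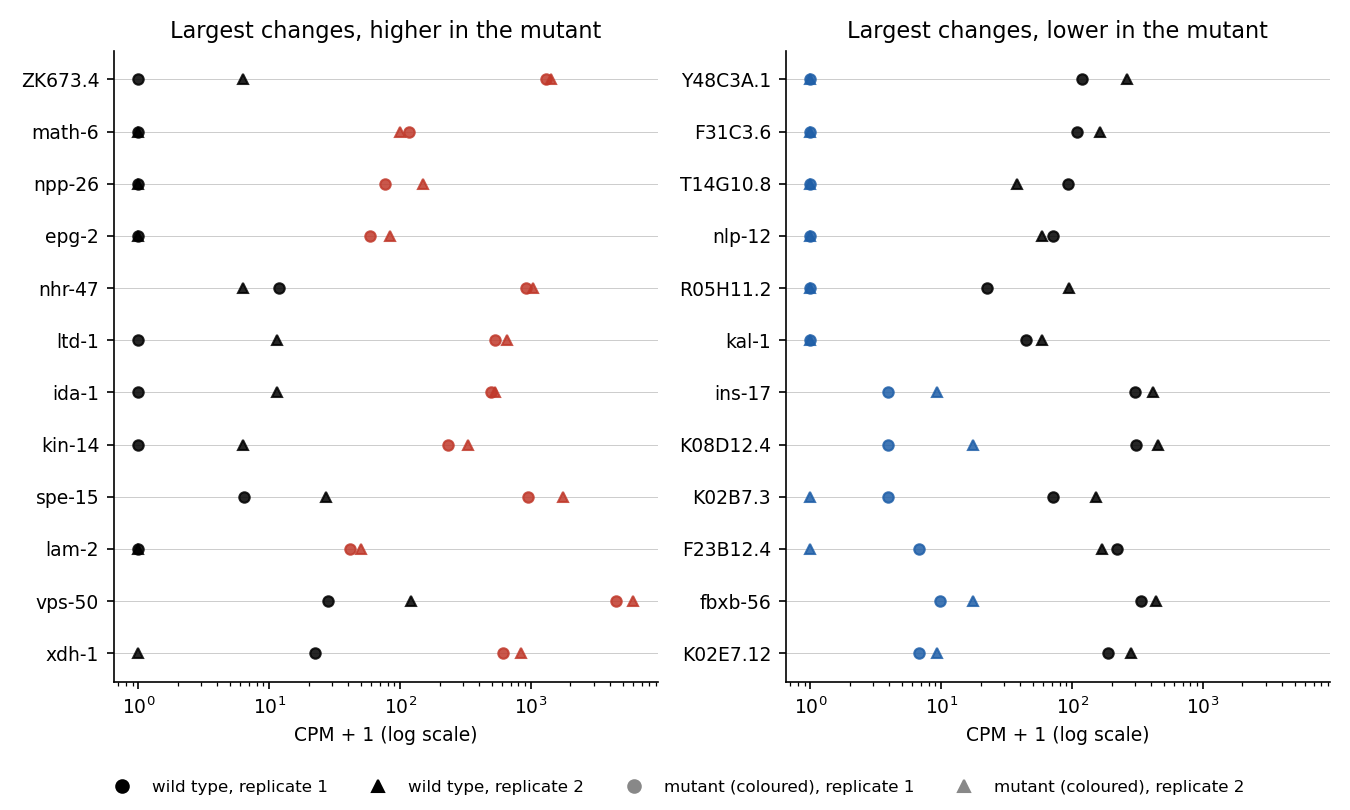
CPM + 1 (log scale) in each of the 4 L4440 libraries for the 12 genes with the largest gain (left) and the 12 with the largest loss (right); black symbols are wild type, coloured symbols the mutant, circles replicate 1 and triangles replicate 2. The genotypes do not overlap for any of these genes, which the choice of genes required, and symbols at 1 are libraries with 0 reads.

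Other genes with large gains had 12 to 100 reads over both wild-type libraries. The selenophosphate synthetase gene seld-1 had 20 and 31 reads in wild type and 1351 and 618 in the mutant (log2 5.05, SE 0.40, adjusted p = 1.93e-09). The tensin gene tns-1, a gene of cell adhesion, had 35 and 65 reads against 1574 and 664 (log2 4.24, SE 0.38, adjusted p = 5.27e-09). klp-20, a motor subunit of the kinesin that carries cargo in cilia, had 24 and 48 reads against 1617 and 643 (log2 4.70, SE 0.39, adjusted p = 2.34e-09). For these 3 genes the lower mutant library was more than 10 times the higher wild-type library in CPM. The log2 fold change without wild-type replicate 1 or 2 was 3.85 or 4.83 at tns-1 and 4.29 or 5.36 at klp-20. The cadherin gene cdh-5 had 5 and 7 reads against 420 and 199 (log2 5.45, SE 0.43), and atgp-1 had 11 and 15 against 609 and 298 (log2 4.92, SE 0.41). Per kilobase of exon, seld-1 went from 103 to 3423 CPM and tns-1 from 51.7 to 980.

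Smaller gains were measured at genes with high counts in wild type. F25G6.1 had 186 and 275 reads in wild type and 1733 and 893 in the mutant, 1220 ± 310 against 6172 ± 1614 CPM (SD, n = 2 each; log2 2.34, SE 0.36, adjusted p = 2.16e-05). pan-1, a gene for a leucine-rich repeat protein, had 277 and 354 reads against 1407 and 545 (log2 1.35, SE 0.32, adjusted p = 0.00274), and its adjusted p was 0.0538 without mutant replicate 2. The kelch repeat gene kel-1 had 174 and 370 reads against 1047 and 519 (log2 1.34, SE 0.35, adjusted p = 0.00769). The groups do not overlap at these genes, but the wild-type libraries differed among themselves at kel-1, whose adjusted p was 0.159 without wild-type replicate 1 and 0.167 without mutant replicate 2. Exons of tns-1, kel-1, epg-2, nhr-47, gly-11 and nrde-1 overlap those of a gene on the opposite strand, as at pid-2.

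The genes with the largest losses were mostly short genes, and several had no reads left in the mutant. Y48C3A.1 (chromosome II, 13260495 to 13261201), a long intergenic RNA gene by the annotation, had 22 and 50 reads in wild type and 0 and 0 in the mutant. F31C3.6 (chromosome I, 15053617 to 15059003) had 20 and 31 reads against 0 and 0, and the neuropeptide gene nlp-12 had 13 and 11 against 0 and 0. These were the genes with at least 10 reads in each wild-type library and none in the mutant. At a floor of 3 reads over both mutant libraries they were at least 31.4-fold, 22.3-fold and 10.5-fold lower in the mutant, with adjusted p of 4.21e-07, 8.15e-07 and 4.14e-04. T14G10.8, R05H11.2 and the anosmin gene kal-1 also had 0 reads in both mutant libraries, and from 19 to 24 over both wild-type libraries. Their calls were lost without mutant replicate 1 (adjusted p = 0.0505, 0.125 and 0.143), and that of R05H11.2 also without wild-type replicate 2 (0.103).

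The insulin-like peptide gene ins-17 (chromosome III, 4476888 to 4477583) had 56 and 79 reads in wild type and 1 in each mutant library. Its share of reads was 88.4-fold lower (24 to 738). K08D12.4 had 57 and 87 reads against 1 and 2, 62.9-fold lower (21.1 to 309), and K02E7.12 had 35 and 54 against 2 and 1, 38.9-fold lower (12.9 to 192). K02B7.3 and F23B12.4 kept 1 and 2 reads over both mutant libraries, from 42 and 73 in wild type. The F-box gene fbxb-56 had 62 and 83 reads against 3 and 2 (log2 -5.08, SE 0.51, adjusted p = 3.37e-08). The genotypes do not overlap at any of these genes, which the choice of genes required. Their calls held in each of the alternative fits that gave a value.

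Well-counted genes with losses changed less. The gene with the most wild-type reads among them was pals-26 (chromosome III, 4376503 to 4379200), of a family whose members pals-22 and pals-25 regulate the response to intracellular pathogens. It had 5005 and 391 reads in wild type and 230 and 197 in the mutant, and wild-type replicate 1 stood apart from the other 3 libraries. Its log2 fold change was -3.69 (SE 0.66, adjusted p = 1.57e-04), and without wild-type replicate 1 it was -0.91 (adjusted p = 0.119). The other tested gene of the family, pals-22, had 36 and 36 reads against 55 and 29 and was not called.

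zip-2, which encodes a transcription factor of the pathogen response, had 836 and 941 reads in wild type against 416 and 139 in the mutant. That was 4710 ± 303 against 1173 ± 49.0 CPM (SD, n = 2 each; log2 -2.0, SE 0.32, adjusted p = 4.08e-05). Wild-type libraries were alike at this gene and both mutant libraries lay well below them. Y57G11C.51 had 1031 and 444 reads against 339 and 152 (log2 -1.83, SE 0.39, adjusted p = 0.00108; log2 -1.09 without wild-type replicate 1). T05E12.8 had 2409 and 1366 CPM against 313.5 and 630.6 (log2 -2.05, SE 0.42, adjusted p = 7.75e-04), and its adjusted p was 0.0510 without mutant replicate 1. C04G6.6 had 270 and 349 reads against 226 and 110 (log2 -1.09, SE 0.31, adjusted p = 0.0148). Its call did not hold without wild-type replicate 2 (0.146), mutant replicate 1 (0.303) or mutant replicate 2 (0.102).

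Genes of the germ granules themselves mostly did not pass the test, where 8.74% of all tested genes were higher and 7.66% lower. Of 6 tested Z granule genes pid-2 was the 1 called. ZK1067.2, which encodes the helicase ZNFX-1, had 124 and 147 reads in wild type and 190 and 71 in the mutant (log2 -0.35, SE 0.30, adjusted p = 0.579), and wago-4 had 276 and 194 against 495 and 156 (log2 0.12, SE 0.31, adjusted p = 0.886). Y45G5AM.2, which encodes the PID-2 partner PID-5, had a log2 fold change of -0.22 (SE 0.32). Of 15 tested P granule genes of 18, 0 were higher and 1 was lower, with a median log2 fold change of -0.31. The lower one was gls-1, a germline survival gene, with 70 and 63 reads against 51 and 14 (log2 -1.38, SE 0.33, adjusted p = 0.00298; 0.0852 without mutant replicate 2). The core genes pgl-1 and glh-1 had values of 0.07 and -0.14. Of 9 tested genes of Mutator foci, where siRNAs are amplified, rde-2 was higher, with 11 and 8 reads against 55 and 13 (log2 1.46, SE 0.46, adjusted p = 0.0278). DESeq2 did not call it (adjusted p = 0.332), nor did edgeR without wild-type replicate 2 (0.0709) or mutant replicate 1 (0.377). mut-16, the scaffold of these foci, was not called (log2 -0.61, SE 0.37).

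Among genes that act in RNA interference a few were higher, at shares mostly near the 8.74% of all tested genes. sid-1 (chromosome V, 5119939 to 5126916) encodes a channel that imports double-stranded RNA. It had 118 and 210 reads in wild type and 1067 and 462 in the mutant, 867 ± 328 against 3441 ± 485 CPM (SD, n = 2 each; log2 1.99, SE 0.35, adjusted p = 1.27e-04). As at all 399 higher genes, both mutant libraries lay above both wild-type libraries, and the call held in each alternative fit. The other 3 tested uptake genes of 9 in the files were not called. Of 17 tested genes of the RNA-dependent RNA polymerase and Dicer complexes 2 were higher (11.8%) and 0 lower, with a median of 0.00. rde-11, a factor of siRNA amplification, had 27 and 55 reads against 221 and 86 (log2 1.63, SE 0.34, adjusted p = 9.49e-04). Its log2 fold change was 1.20 or 2.31 without wild-type replicate 1 or 2. rde-4, for a Dicer partner that binds double-stranded RNA, had 28 and 59 reads against 174 and 66 (log2 1.18, SE 0.34, adjusted p = 0.0154). Its call was lost without wild-type replicate 1 (adjusted p = 0.303), mutant replicate 1 (0.0808) or mutant replicate 2 (0.0920).

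Downstream steps gave 1 more call. nrde-1, a nuclear RNAi gene, had 18 and 18 reads in wild type and 95 and 34 in the mutant, 95.5 ± 1.84 against 277 ± 1.88 CPM (SD, n = 2 each; log2 1.53, SE 0.36, adjusted p = 0.00269). It was the 1 called of 13 tested nuclear RNAi genes, 7.69% against 8.74% of all tested genes called higher. Both mutant libraries lay above both wild-type libraries, as at all 399 higher genes. Of 9 tested Argonaute genes, out of 21 in the files, 0 were called. Their log2 fold changes ran from -0.48 at hrde-1, the germline nuclear Argonaute, to 0.43 at wago-1, and csr-1 had 239 and 170 reads against 304 and 111 (log2 -0.28, SE 0.31). Of 12 tested genes of piRNA biogenesis 0 were called and the median was 0.31. tofu-2 came closest, with 10 and 12 reads against 35 and 22 (log2 1.16, SE 0.41, adjusted p = 0.0574).

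**Figure D3:**
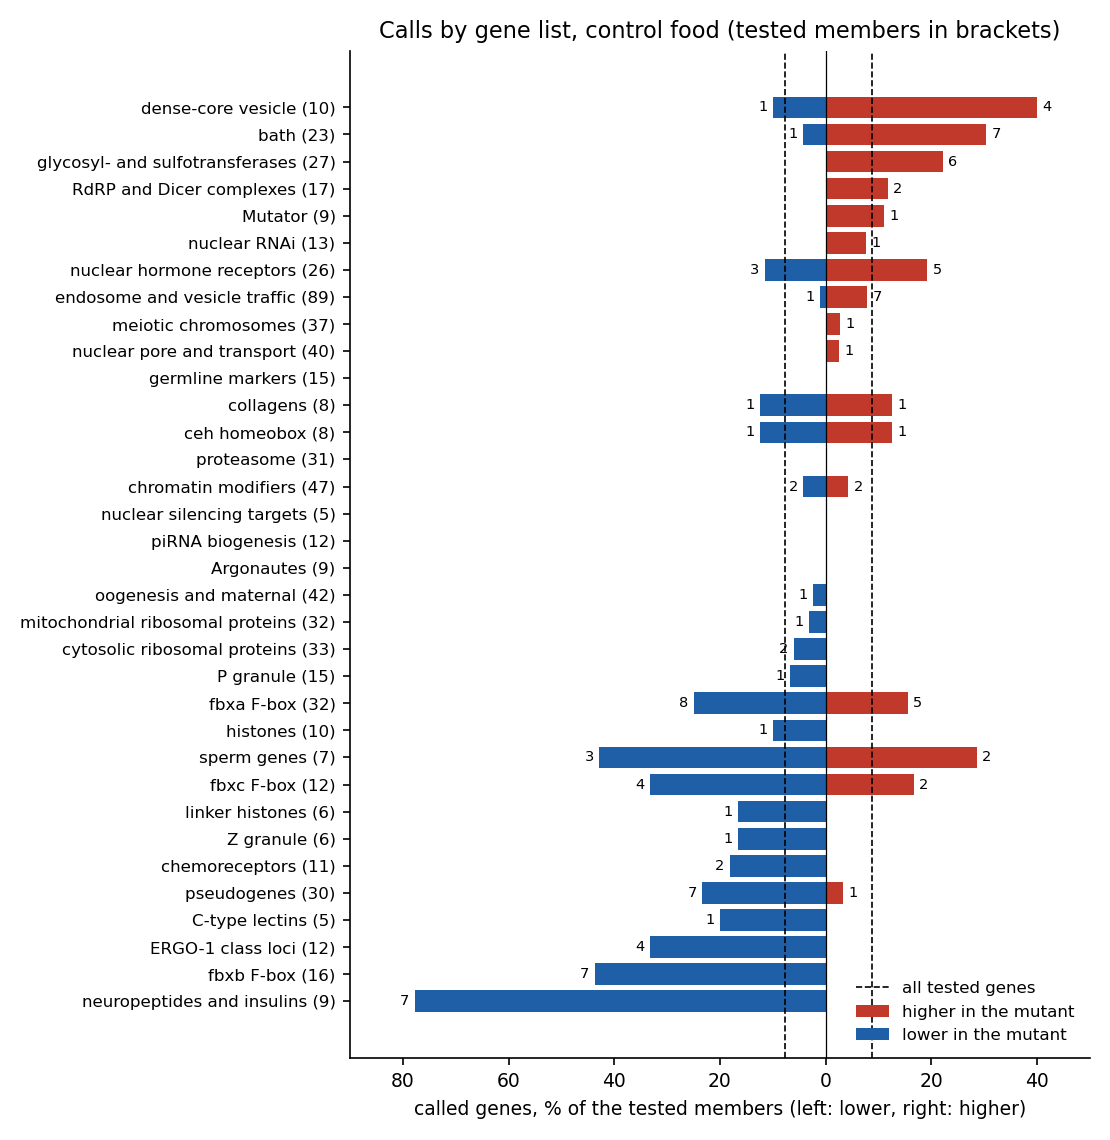
Share of the tested members of each gene list that was called lower (blue, to the left) or higher (red, to the right) in the mutant on L4440, with tested members in brackets and the number called at each bar. Dashed lines mark 7.66 and 8.74% of all tested genes; short lists with few tested members can give large shares from few calls.

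Loci of siRNAs that depend on the Argonaute ERGO-1 are mostly recently duplicated genes. Of 12 tested loci 0 were higher and 4 lower (33.3%), against 8.74 and 7.66% of all tested genes. The median log2 fold change was -0.61 against -0.07 over all tested genes, and 2 of the 12 passed the filter through wild type alone. C18D4.6 had 39 and 52 reads in wild type and 6 and 5 in the mutant (log2 -3.28, SE 0.44, adjusted p = 3.17e-06; log2 -2.53 without mutant replicate 1). E01G4.5 had 418 and 643 reads against 284 and 112, 2807 ± 790 against 871 ± 65.6 CPM (SD, n = 2 each; log2 -1.69, SE 0.32, adjusted p = 2.55e-04). Both mutant libraries lay below both wild-type libraries at these loci, as at 337 of the 350 lower genes. F39F10.4 (log2 -2.09, SE 0.41) and W05H12.2 (-1.21, SE 0.34) were also lower, and lost the call without mutant replicate 1 (adjusted p = 0.0561 and 0.363). The 5 tested targets of nuclear silencing had 0 calls and log2 fold changes from -0.79 at lin-15B to 0.16 at B0250.8. The loci are near-identical to other sequences, so reads can be shared with copies.

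Genes of oogenesis and of meiotic chromosomes gave few calls, where 8.74% of all tested genes were higher and 7.66% lower. Of 42 tested oogenesis and maternal genes 0 were higher and 1 was lower, and of 37 tested genes of meiotic chromosomes 1 was higher and 0 lower; the medians were -0.07 and -0.01. The calls were daz-1, an RNA-binding protein gene of oogenesis (31 and 28 reads against 29 and 4; log2 -1.22, adjusted p = 0.0358), and him-8, which acts at the pairing centre of the X chromosome (11 and 11 against 50 and 14; log2 1.19, adjusted p = 0.0318). Both calls are weak: without single libraries the adjusted p reached 0.319 for daz-1 (mutant replicate 2) and 0.343 for him-8 (mutant replicate 1), and with DESeq2 it was 0.349 and 0.404. Of the listed sperm genes 7 had enough reads, 2 higher and 3 lower, and most of the list was not tested. Of the 7, 3 passed the filter through wild type alone, and these were the 3 lower genes. spe-15, which was higher, passed through the mutant alone. Such a choice favours genes with more reads in that genotype. spe-15 kept its call in each alternative fit. The 3 lower ones (ssp-16, spe-47 and smz-1) and the channel gene spe-41, which was higher (log2 1.09, SE 0.35), each lost the call without mutant replicate 1 (adjusted p = 0.0987, 0.359, 0.0695 and 0.0819). ssp-16 had 97 and 10 reads in wild type, and without wild-type replicate 1 its log2 fold change was -0.40 (adjusted p = 0.844).

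Linker histones bind DNA between nucleosomes, and 1 of 6 tested genes was lower (16.7%), against 7.66% of all tested genes. This gene was hil-3 (chromosome X, 8159153 to 8160084). It had 236 and 286 reads in wild type and 58 and 20 in the mutant, 1383 ± 161 against 166 ± 3.24 CPM (SD, n = 2 each; log2 -3.05, SE 0.33, adjusted p = 1.24e-07). The wild-type libraries were about 8-fold above the mutant libraries, and the call held in each alternative fit. The abundant linker histone gene his-24 was not called (log2 -0.81, SE 0.32, adjusted p = 0.0886). Of 10 tested histone genes his-41 was the 1 called, with 11 and 13 reads against 3 and 0 (log2 -3.23, SE 0.78, adjusted p = 0.00375; 0.0908 with DESeq2). Of 47 tested chromatin modifier genes 2 were higher and 2 lower (4.3% each), with a median of -0.04. Over all tested genes 8.74% were higher and 7.66% lower. The methyltransferase gene set-18 had 0 and 2 reads against 74 and 23, a 37.0-fold higher share (9.98 to 310). The histone demethylase gene lsd-1, the heterochromatin protein gene hpl-1 and the methyltransferase gene dot-1.1 (log2 3.08, -1.50 and -1.37) lost the call without mutant replicate 1 (adjusted p = 0.0584, 0.156 and 0.329).

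Dense-core vesicles store neuropeptides, and 10 of the 17 genes of these vesicles in the files were tested. Of the 10, 4 were higher (40%) and 1 lower (10%), against 8.74 and 7.66% of all tested genes. This list was drawn up with the gains of its members already known, so its count is not independent evidence of a direction, and 2 of the 10 passed the filter through the mutant alone. Beside vps-50 and ida-1, ric-19 had 0 and 1 reads in wild type and 20 and 18 in the mutant, a 29.0-fold higher share (4.90 to 1175). egl-21, a carboxypeptidase gene of neuropeptide processing, had 9 and 16 reads against 56 and 31 (log2 1.58, SE 0.44, adjusted p = 0.0112), with an adjusted p of 0.0871 without wild-type replicate 1 and 0.0959 without mutant replicate 2. unc-108, the RAB-2 gene, was lower (log2 -1.39, SE 0.38, adjusted p = 0.00996) and lost its call without either mutant library (0.0996 and 0.0970). ric-19 and egl-21 are also the 2 called neuron markers of 15, of which 3 were tested; all 15 held 0.015 and 0.019% of reads in wild type and 0.032 and 0.044% in the mutant. Whether neurons contributed to these reads was not tested.

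Genes of the peptides that these vesicles carry mostly had too few reads to be tested. Of 147 neuropeptide and insulin genes 9 were tested, of which 7 were lower and 0 higher. The lower genes were 77.8% of those tested, against 7.66% of all tested genes. But 6 of the 9 passed the filter through wild type alone, a choice that favours genes with more reads there. Of all 697 genes that passed that way 192 were lower. Beside ins-17 and nlp-12, nlp-52 had 42 and 52 reads in wild type and 10 and 6 in the mutant (log2 -2.80, SE 0.43, adjusted p = 2.32e-05). nlp-62 had 14 and 29 reads against 3 and 2 (log2 -3.33, SE 0.69, adjusted p = 8.02e-04; log2 -2.62 without wild-type replicate 2). At all 4 genes the mutant libraries lay below the wild-type libraries, as at 337 of the 350 lower genes. The calls held in each alternative fit that gave a value (nlp-12 had none at a minimum count of 30). ins-5 passed the filter in both genotypes, with 559 and 628 CPM against 255.5 and 246 (log2 -1.24, SE 0.32, adjusted p = 0.00668). It lost its call without wild-type replicate 2 (adjusted p = 0.0518), mutant replicate 1 (0.109) or mutant replicate 2 (0.130). ins-34 and nlp-77, the other called genes of the list, lost theirs with DESeq2 (0.229 and 0.382).

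Of 89 tested genes of endosomes and vesicle traffic, out of 145, 7 were higher and 1 lower, 7.87 and 1.12% of the tested members against 8.74 and 7.66% of all tested genes. Apart from vps-50, the higher genes included tbc-6, a gene of the family of Rab GTPase activators, with 1 and 6 reads in wild type and 204 and 150 in the mutant (log2 5.55, SE 0.55, adjusted p = 2.69e-08). Without wild-type replicate 1 or 2 that value was 4.77 or 7.32. cogc-8, of the Golgi tethering complex, had 13 and 18 reads against 169 and 61 (log2 2.58, SE 0.35, adjusted p = 4.03e-06), and vps-11, of a tethering complex of late endosomes, had 33 and 42 against 188 and 92 (log2 1.69, SE 0.35, adjusted p = 8.32e-04). The 1 lower gene was rme-6, an activator of the early endosome GTPase RAB-5, with 50 and 36 reads against 20 and 5 (log2 -2.11, SE 0.38, adjusted p = 1.91e-04). The genotypes do not overlap at any of these 4 genes, as at most called genes.

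Of 27 tested glycosyl- and sulfotransferase genes, out of 150, 6 were higher (22.2%) and 0 lower, with a median of 0.20. Over all tested genes 8.74% were higher and 7.66% lower. Of the 27, 5 passed the filter through the mutant alone and 5 through wild type alone. gly-13 and gly-14, which encode enzymes that start the complex sugar chains of proteins, had 56 and 73 reads against 535 and 220 and 1 and 7 against 174 and 85. Their log2 fold changes were 2.29 (SE 0.32, adjusted p = 6.27e-06) and 4.77 (SE 0.57, adjusted p = 5.03e-07), and that of gly-14 was 3.97 or 6.74 without wild-type replicate 1 or 2. gly-11, for an enzyme that adds sugars to serine and threonine, had 0 and 5 reads against 164 and 81. Without wild-type replicate 2 no wild-type read was left at gly-11, so the size of its gain is poorly fixed. bre-1, which acts in fucose synthesis, had 2 and 3 reads against 92 and 37 (log2 4.36, SE 0.49, adjusted p = 2.36e-07), and the sulfotransferase gene chst-1 had 1 and 0 against 41 and 25. The sixth call, chpf-1, was lost without mutant replicate 1 (adjusted p = 0.658).

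Nuclear hormone receptors are a large family of transcription factors in this worm, and 26 of 268 genes were tested. Of these, 5 were higher (19.2%) and 3 lower (11.5%), against 8.74 and 7.66% of all tested genes. The filter was passed through the mutant alone by 4 of the 26 and through wild type alone by 3. Beside nhr-47, nhr-243 had 1 and 5 reads in wild type and 129 and 84 in the mutant (log2 4.97, SE 0.57, adjusted p = 2.90e-07; 4.25 or 6.53 on the log2 scale without wild-type replicate 1 or 2). nhr-40 had 6 and 6 reads against 47 and 24 (log2 2.30, SE 0.48) and nhr-48 had 15 and 20 against 101 and 43 (log2 1.77, SE 0.35). nhr-1 changed the other way, with 105 and 162 reads against 31 and 10 (log2 -3.01, SE 0.39, adjusted p = 1.91e-06). The 5 gains, with nhr-95 the fifth, and the loss at nhr-1 held in each alternative fit that gave a value; nhr-95 had none at a minimum count of 30. The losses at nhr-228 and nhr-236 did not hold without mutant replicate 1 (adjusted p = 0.0868 and 0.362). Of 8 tested ceh homeobox genes ceh-41 was higher (log2 2.20, SE 0.49) and ceh-99 lower (-2.38, SE 0.63), and both calls were lost with DESeq2 (adjusted p = 0.0614 and 0.170).

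F-box and MATH domain genes belong to large, fast-evolving families linked to protein turnover. Their shares stand beside 8.74% higher and 7.66% lower of all tested genes. Most of their calls did not hold in every alternative fit. Of 23 tested bath genes, out of 37, 7 were higher (30.4%) and 1 lower (4.35%), with a median log2 fold change of 0.81. Of the 23, 19 passed the filter in both genotypes and 4 through the mutant alone. bath-1 had 22 and 34 reads in wild type and 304 and 165 in the mutant (log2 2.89, SE 0.36, adjusted p = 8.42e-07). bath-36 had 5 and 21 reads against 225 and 129 (log2 3.60, SE 0.47, adjusted p = 2.09e-06; 2.91 or 5.03 without wild-type replicate 1 or 2). These 2 gains held in each alternative fit, and the other 5 did not hold in at least 1 of them. bath-41 was lower (log2 -1.47, SE 0.34, adjusted p = 0.00274; 0.108 without mutant replicate 1).

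Of 16 tested fbxb genes, out of 106, 7 were lower and 0 higher, and the median log2 fold change was -1.29. The lower genes were 43.8% of those tested, against 7.66% of all tested genes. But 9 of the 16 passed the filter through wild type alone, and of all 697 genes that passed that way 192 were lower. fbxb-56 was the 1 call that held in each alternative fit. fbxb-93, fbxb-56 and fbxb-100 are consecutive tested genes on chromosome I (14083048 to 14096346), and all 3 were lower. fbxb-100 had 222 and 240 reads against 203 and 78 (log2 -1.0, SE 0.32, adjusted p = 0.0320), and lost its call without wild-type replicate 2 (0.119), mutant replicate 1 (0.269) or mutant replicate 2 (0.257). Of 32 tested fbxa genes 5 were higher (15.6%) and 8 lower (25%). Of the 32, 9 passed the filter through wild type alone and 2 through the mutant alone. fbxa-192, with 64.5 and 94.2 CPM against 682 and 794 (log2 3.2, SE 0.37, adjusted p = 3.01e-07), fbxa-111 (log2 2.03, SE 0.38) and fbxa-13 (1.71, SE 0.39) kept their gains in each alternative fit, and 0 of the 8 losses did. Of 12 tested fbxc genes 2 were higher (16.7%) and 4 lower (33.3%), and fbxc-44 (log2 1.84, SE 0.40, adjusted p = 0.00144) was the call that held. Of the 12, 4 passed the filter through wild type alone. Members of these families resemble each other, so reads that match several of them are uncertain between them.

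Housekeeping lists gave few calls. Of 33 tested cytosolic ribosomal protein genes 0 were higher and 2 lower (rpl-3 and rpl-11.1), of 32 for the mitochondrial ribosome 0 and 1 (mrpl-15), of 31 for the proteasome 0 and 0, and of 40 for the nuclear pore and nuclear transport 1 (npp-26) and 0. The lower genes were 6.06% of the cytosolic ribosomal list, near the 7.66% of all tested genes. The medians of the 4 lists were -0.41, -0.09, -0.29 and -0.06, and 5 of the 33 cytosolic ribosomal genes had a log2 fold change above 0. The calls of rpl-3, rpl-11.1 and mrpl-15 were lost with DESeq2 (adjusted p = 0.381, 0.455 and 0.410) and without mutant replicate 1 (0.284, 0.395 and 0.0787). Families with few tested members gave single calls: col-38 was higher (13 and 32 reads against 125 and 77; log2 2.02, SE 0.40; 2.87 without wild-type replicate 2) and col-97 lower among 8 tested collagens. clec-238 was lower among 5 C-type lectins, and sra-35 and srg-34 among 11 chemoreceptors of 1216 in the files. The calls of col-97, clec-238, sra-35 and srg-34 were lost without mutant replicate 1 (adjusted p = 0.0900, 0.413, 0.191 and 0.523). Of 30 tested pseudogenes 1 was higher and 7 lower (23.3%), and 5 of the 30 passed the filter through wild type alone. The higher one, W06A11.4, had 46 and 48 reads against 368 and 132 (log2 2.1, SE 0.33, adjusted p = 2.59e-05). Of the 7 losses 0 held in each alternative fit.

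Along the genome, the higher genes were spread over the chromosomes and the lower genes were more frequent on X. Higher genes were 82 of 1038 tested on chromosome I, 83 of 854 on II, 92 of 1002 on III, 64 of 774 on IV, 55 of 682 on V and 23 of 217 on X. Lower genes were 74, 63, 57, 54, 54 and 48 in the same order, which is 22.1% of the tested genes on X against 6.94% on the other chromosomes. Of the tested X-linked genes 58 passed the filter through wild type alone and 24 through the mutant alone. The count on X rested on single libraries: without mutant replicate 1 it was 15 of 213 (7.04%), against 3.17% on the other chromosomes, and 18 X-linked genes were then higher. Without mutant replicate 2 it was 32 (14.8%), and with DESeq2 it was 22 (10.1%). hil-3 and F59C12.4 were among the X-linked losses that held in each alternative fit. F59C12.4 (16602445 to 16602717) had 111 and 109 reads in wild type and 8 and 5 in the mutant (log2 -4.32, SE 0.42, adjusted p = 1.68e-08). gfi-3, with 32 and 44 reads against 496 and 203 (log2 2.94, SE 0.33, adjusted p = 2.32e-07), and F39C12.1 (log2 2.71, SE 0.32) were X-linked genes with the reverse change.

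The lower genes were short. Their median exon length was 1022 bases with a median of 4 exons, against 1666 bases and 7 exons for the higher genes and 1683 bases and 6 exons for all tested genes. In the shortest of 4 equal length classes of tested genes (141 to 1086 bases) 189 were lower, 16.6%, and in the longest (2559 to 25882 bases) 33, 2.89%; the middle classes had 7.36 and 3.86%. Higher genes showed no such trend, with 91, 110, 105 and 93 from the shortest to the longest class. On the autosomes alone the lower genes were 15.2, 6.55, 3.57 and 2.59% of the classes. From the shortest to the longest class the medians of mean CPM were 81.8, 80.6, 91.4 and 133. Of the 350 lower genes 192 passed the filter through wild type alone, which was not counted by length class. The cause of the trend was not tested. The contrast between the shortest and the longest class had the same direction without each library, where the shares of lower genes in the shortest class ranged from 7.56 to 15.4% and in the longest from 1.68 to 2.98%.

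**Figure D4:**
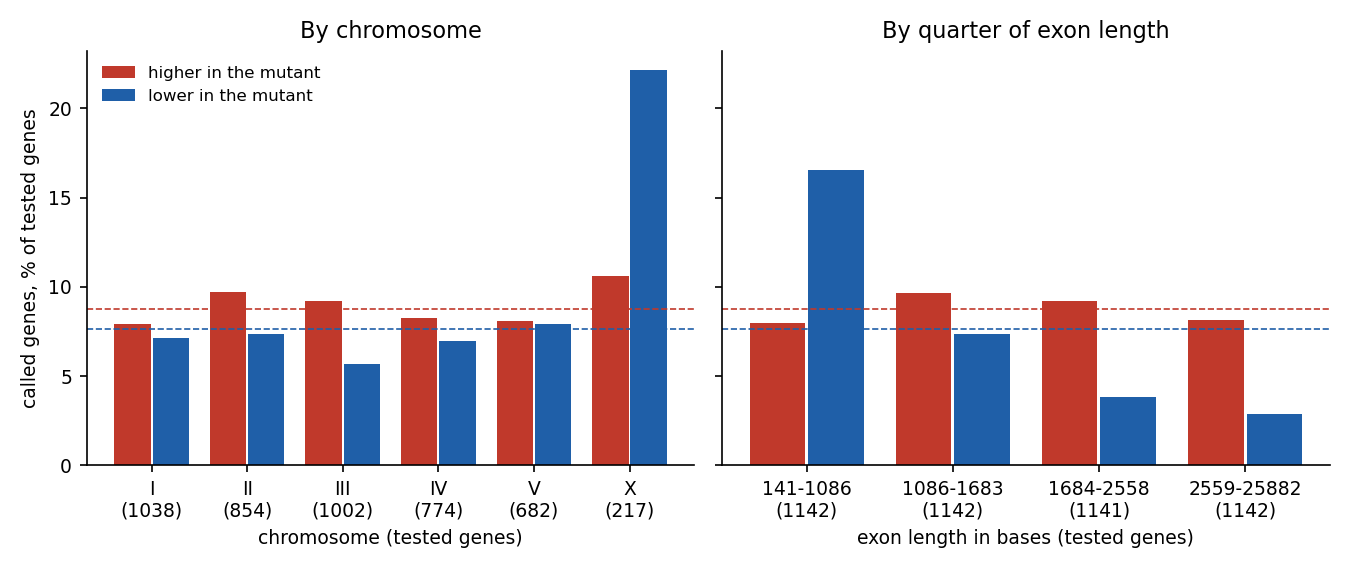
Share of tested genes called higher (red) or lower (blue) in the mutant on L4440, by chromosome (left) and by class of exon length (right), with the tested genes in brackets; dashed lines mark the shares over all tested genes. The blue bars of chromosome X (22.1%) and of the shortest class (16.6%) stand above the line at 7.66%.

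Called genes that neighbour each other were counted along the chromosomes, with no test. The next tested gene was also higher for 46 of the 399 higher genes, 11.5% against 8.75% over all genes, and also lower for 40 of 348 lower genes with a next gene, 11.5% against 7.67%. Among genes that share no exon bases with another gene these shares were 9.13 against 7.95% and 10.37 against 8.92%, close to those over all genes. The longest run of higher genes was ltd-1, chst-1, lron-4 and ire-1 on chromosome II (8088427 to 8124910), where lron-4 had 4 and 2 reads in wild type and 209 and 103 in the mutant (log2 5.44, SE 0.47). On chromosome III (194460 to 235121) F40G9.17, klp-20 and hpo-38 formed a run, and hpo-38 had 15 and 18 reads against 612 and 280 (log2 4.53, SE 0.38). klp-20 and hpo-38 overlap by a few bases at their ends, so part of their reads may be shared.

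The same contrast on oma-1 RNAi food used 4 other libraries, within the same fit. There 382 genes were higher (8.36% of those tested) and 337 lower (7.38%). Of the 399 genes higher on L4440, 391 had a positive log2 fold change on oma-1 RNAi and 325 were called higher there, with a median of 1.90. Of the 350 lower genes, 344 had a negative value and 244 were called lower, with a median of -1.87. The 74 higher and 106 lower genes that were called on L4440 alone had medians of 0.70 and -0.90 on oma-1 RNAi, against 1.46 and -1.78 on L4440. Because the genes were chosen by their L4440 values, larger values on that food are partly fixed by the choice.

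The difference between the foods was tested directly, and 0 genes passed in edgeR's quasi-likelihood test (smallest adjusted p = 0.9998) or in DESeq2. At an unadjusted p under 0.05 there were 113 genes, and without wild-type replicate 2 on L4440 the test called 7. ZK673.4 had log2 fold changes of 8.73 on L4440 and 8.15 on oma-1 RNAi, vps-50 of 6.13 and 5.95, sid-1 of 1.99 and 1.75, hil-3 of -3.05 and -3.37 and pid-2 of -3.58 and -3.48. pals-26 had 1075 and 753 wild-type reads on oma-1 RNAi and was not called there (log2 -1.47, adjusted p = 0.13). R05H11.2, with no mutant reads on L4440, was also not called on oma-1 RNAi (log2 -1.13, adjusted p = 0.54). With 2 libraries a group, the absence of calls does not show that the foods are alike. How large a difference at a single gene could be detected was not tested.

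**Figure D5:**
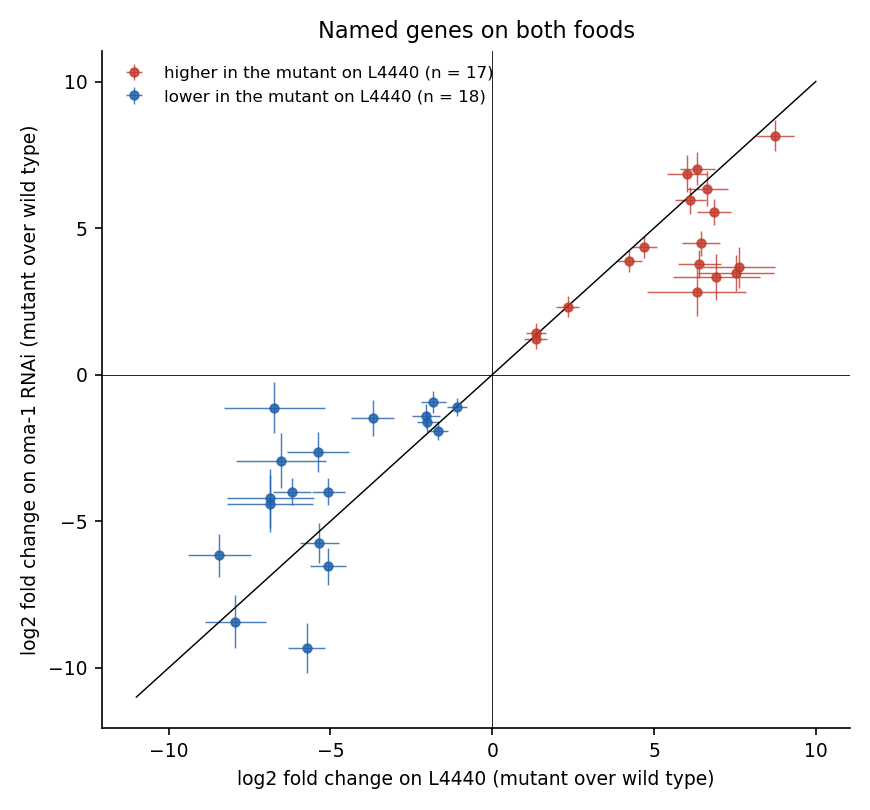
Log2 fold change of the mutant over wild type on L4440 (x axis) and on oma-1 RNAi (y axis) for the 35 genes chosen by the size of their change or by their counts on L4440, with bars of 1 SE from the fit; the line marks equal values. All 17 genes higher on L4440 (red) had positive values and all 18 lower genes (blue) negative values on oma-1 RNAi.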

How the data were processed

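The files hold whole-number read counts per gene, 1 file for each of the 8 libraries, as deposited. Per the submitters' processing notes, cutadapt 1.14, TopHat2 2.1.1, featureCounts 1.6.0 and genome build WBcel235 were used; the strand setting, annotation and handling of reads with several matches were not given in the sources used here. Per the labels' protocols, total RNA of whole animals was cloned by a method that does not need a 5′ monophosphate, and short RNAs were selected. The deposited counts were tested with edgeR 4.0.16 (R 4.3.3): TMM scaling, a minimum count of 10 in filterByExpr, and quasi-likelihood fits of 4 group means over 8 libraries with 4 residual degrees of freedom. The contrasts were mutant minus wild type on each food, and the difference between foods. P-values were adjusted by Benjamini-Hochberg, with a threshold of 0.05, and the procedure was tested on simulated data. The simulated counts had the same spread setting in every gene and library, so they do not fix the error rate of the calls here. DESeq2 1.42.0 was an alternative. Exact intervals (95%) and the floor of 3 reads over both libraries of a genotype cover counting error only. Names and coordinates were matched to Ensembl symbols (18925 genes) or RefSeq synonyms (1090); 176 genes had no match.

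Genes were named by rule: up to 12 per direction with the largest change and up to 6 with the highest level, among called genes whose genotypes did not overlap, and up to 4 per list with the smallest p. The comparison and the lists were chosen with earlier results of these data known. chst-1, chpf-1, spe-41, vps-11, ins-5, ins-34, nlp-77, nhr-40, nhr-48, nhr-228, nhr-236, fbxb-93 and fbxb-100 were named after their values were seen. No sequences are shown.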

Additional observations from a re-analysis of the deposited data

How the results depend on the processing

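The number of higher genes (399) stayed within 1.5 times under each alternative: 370 with the 4 L4440 libraries alone, 302 with DESeq2, 403 with DESeq2's size factors, 368 with library totals, 417 without a filter, 352 at a minimum count of 30, and 321 to 470 when 1 library was left out. The number of lower genes (350) was 309 with the 4 L4440 libraries alone, 319 with DESeq2's size factors, 403 with library totals and 426 without a filter, where lower genes outnumbered higher ones. It was 149 with DESeq2, 186 at a minimum count of 30, and 155 to 333 when 1 library was left out, where the lone library of a group is assumed to vary like the others; the minimum count tests fewer genes, and for the rest the cause was not tested. Of the lower genes, 146 were shared with DESeq2 and 144 with the fit without mutant replicate 1. The difference between foods, with 0 genes, gave 1 without a filter and 0 to 7 when 1 library was left out. The replicate numbers of the labels do not say that libraries share a culture or day, and with 2 numbers the data do not settle whether they pair the samples. Deviations from the group means correlated at 0.171 to 0.347 over 6 pairs of groups, and at 0.185 between the genotypes on L4440. A replicate block gave 547 higher and 478 lower genes, which held all 399 and 350, and 2 genes for the difference between foods. It also called 13 named genes that the fit without it did not, among them his-24 (adjusted p = 5.9e-06), tofu-2 (0.0126) and hrde-1 (0.0213). Of 231 named genes 163 were called, 85 of them in every alternative that gave a value, and 0 reversed. At 136908 reads, 1 read is 7.30 CPM before scaling, so losses among genes with few reads are the least certain.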

Other observations

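Genes of 3 further groups were chosen after their values were seen, so their counts carry no test. Of 18 tested G protein signalling genes, out of 50, 4 were higher (22.2%) and 7 lower (38.9%), against 8.74 and 7.66% of all tested genes. Of the 18, 5 passed the filter through wild type alone and 2 through the mutant alone. egl-10, a regulator of G protein signalling, had 11 and 6 reads in wild type and 471 and 170 in the mutant (log2 4.92, SE 0.41). egl-8, for phospholipase C beta, had 10 and 6 reads against 122 and 47 (log2 3.10, SE 0.40), and acy-1, for adenylyl cyclase, had 3 and 5 against 59 and 14 (log2 2.79, SE 0.47). The genes for the alpha subunits Gs and Gq were lower: gsa-1 had 178 and 242 reads against 64 and 29 (log2 -2.42, SE 0.34), and egl-30 had 41 and 67 against 20 and 8 (log2 -2.23, SE 0.43). Both genotypes were apart at each of these genes, as at most called genes. The 5 calls held in each alternative fit that gave a value (acy-1 had none at a minimum count of 30).

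Of 12 tested dauer signalling genes, out of 33, 0 were higher and 3 lower (25%), against 8.74 and 7.66% of all tested genes. Of the 12, 2 passed the filter through wild type alone and 1 through the mutant alone. daf-16, the FOXO transcription factor gene, had 559 and 502 CPM against 131 and 156 (log2 -1.92, SE 0.35). daf-7, for a TGF-beta ligand, had 17 and 12 reads against 2 and 0, a 19-fold lower share (4.81 to 164). The insulin receptor gene daf-2 (log2 -1.50, SE 0.39) was not called by DESeq2 (adjusted p = 0.118), nor without wild-type replicate 2 (0.159) or mutant replicate 1 (0.260). Of 14 tested kinesin genes, out of 22, 2 were higher (14.3%) and 0 lower. Beside klp-20, kap-1, for the accessory subunit of the same motor, had 0 and 3 reads against 78 and 27, a 26.7-fold higher share (8.89 to 132).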
